A study of Rattus norvegicus with 8 samples.

Results

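The comparison described here sets the renal cortex of DOCA-salt rats against that of sham-operated rats, at the level of mature microRNAs (miRNAs). A miRNA was taken as a member when the scanner software called it detected on both arrays of DOCA or on both arrays of SHAM, which held for 239 of the 758 rat miRNAs on the array. Of these, 193 were detected on both arrays of both groups, 11 on both arrays of DOCA only and 35 on both arrays of SHAM only. DOCA rats (2 arrays) had been nephrectomized, ate chow with 1.5% sodium and received deoxycorticosterone acetate under the skin at 8 mg/kg, 2 times a week in soybean oil, with a weekly intravenous vehicle injection from week 2. SHAM rats (2 arrays) had a sham operation and ate chow with 0.5% sodium, with no injection named in the labels. DOCA and SHAM therefore differ in the nephrectomy, the steroid, the sodium and the injections at once, and these cannot be told apart in this comparison. UNX rats (2 arrays), which were nephrectomized, ate 0.5% sodium and received soybean oil under the skin, are given beside some results. DOCA-EVs rats (2 arrays), treated as DOCA but with vesicles in the weekly injection, serve only in the shared estimate of the spread. All rats were male, and strain and age are not given in the sources used here. The labels place the end of the experiment at 9 weeks after nephrectomy, with 8 weeks of treatment.

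MiRNAs are short RNAs cut from a hairpin precursor. They are loaded into Argonaute proteins and lower the stability and translation of messenger RNAs that pair with them, mainly through the seed at bases 2 to 8. Deoxycorticosterone acts on the mineralocorticoid receptor, which in the kidney raises sodium reabsorption in the distal nephron, and with salt and a missing kidney it gives a rat model of hypertension with renal inflammation and fibrosis. In kidney, miR-192, miR-194 and the miR-200 and miR-30 families are known from epithelium, miR-142, miR-223 and miR-155 from leukocytes, and miR-21 from injured and fibrotic tissue.

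The mature sequences of the miRNAs on which the results turn follow, 5′ to 3′, with the seed in capitals. They are from RefSeq for the rat assembly GRCr8, whose miRNA table matched 215 of the 239 members by name. The array files name an older assembly, and no position on it is used. In GRCr8 the mature miR-155-5p lies at chr11:37261117-37261139 on the plus strand in Mir155, and miR-375-3p at chr9:83906591-83906612 on the minus strand in Mir375. These were the 2 miRNAs past the threshold of the test.
miR-155-5p: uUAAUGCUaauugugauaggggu
miR-375-3p: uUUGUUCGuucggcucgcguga

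MiRNAs of leukocytes and of fibrosis, with miR-34a-5p, miR-221-3p and their seed partners, had positive differences. The miR-132-3p and miR-212-3p pair, the miR-146a-5p and miR-146b-5p pair, the miR-34a-5p and miR-34b-5p pair and the miR-221-3p and miR-222-3p pair each share 1 seed.
miR-142-3p: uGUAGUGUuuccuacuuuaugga
miR-223-3p: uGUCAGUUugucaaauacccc
miR-146b-5p: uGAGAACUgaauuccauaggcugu
miR-146a-5p: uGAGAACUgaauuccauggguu
miR-21-5p: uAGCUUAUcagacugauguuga
miR-21-3p: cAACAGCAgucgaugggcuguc
miR-132-3p: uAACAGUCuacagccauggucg
miR-212-3p: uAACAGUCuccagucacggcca
miR-34a-5p: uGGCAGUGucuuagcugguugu
miR-34b-5p: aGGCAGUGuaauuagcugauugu
miR-221-3p: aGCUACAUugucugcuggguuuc
miR-222-3p: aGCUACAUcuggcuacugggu

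The largest difference of all belonged to miR-3584-5p, an 18-base sequence rich in guanine, listed with miR-6216, which was also higher in DOCA. The next 5 carry the seed AGCAGCA, and miR-503-5p, from the same hairpin cluster as miR-322-5p, carries the related seed AGCAGCG.
miR-3584-5p: gGGAGGAGuccaggaggc
miR-6216: gAUACACAgaggcaggaggagaa
miR-15b-5p: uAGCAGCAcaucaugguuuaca
miR-16-5p: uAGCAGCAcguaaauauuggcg
miR-195-5p: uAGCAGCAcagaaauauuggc
miR-497-5p: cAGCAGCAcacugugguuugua
miR-322-5p: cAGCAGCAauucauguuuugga
miR-503-5p: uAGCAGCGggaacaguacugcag

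The miRNAs below, of epithelium, of smooth muscle (miR-145-5p) and of the matrix-restraining miR-29 family, with miR-326-3p, had negative differences. The 5p arms of the miR-30 family share the seed GUAAACA, the 3p arms of miR-30a and miR-30c-2 carry other seeds, and miR-29a-3p and miR-29c-3p share AGCACCA.
miR-192-5p: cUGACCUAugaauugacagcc
miR-194-5p: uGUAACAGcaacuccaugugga
miR-203a-3p: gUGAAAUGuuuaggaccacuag
miR-30a-5p: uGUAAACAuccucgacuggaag
miR-30c-5p: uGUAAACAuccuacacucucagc
miR-30e-5p: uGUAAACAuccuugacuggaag
miR-30a-3p: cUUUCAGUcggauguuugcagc
miR-30c-2-3p: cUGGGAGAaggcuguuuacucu
miR-29a-3p: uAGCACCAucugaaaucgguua
miR-29c-3p: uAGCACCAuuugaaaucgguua
miR-145-5p: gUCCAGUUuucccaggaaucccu
miR-326-3p: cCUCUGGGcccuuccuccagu

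Levels are log2 normalized signals, and a difference is the mean of DOCA minus the mean of SHAM, given ± its standard error from the limma fit with n = 2 arrays each. The software called 232 and 204 of the members detected on DOCA replicates 1 and 2, against 230 and 230 on SHAM replicates 1 and 2. Most controls were low on DOCA replicate 2, called weakly hybridised below on this ground. The control dmr_3 had a signal of 981 there and 2235 on DOCA replicate 1, against 2232 and 2168 in SHAM. The 75th percentile of that array before scaling was lower too, at 282, against 414 on DOCA replicate 1 and 421 and 395 in SHAM. Before scaling, the controls dmr_6, SCorner3, hur_1, hur_2 and hur_4 of DOCA replicate 2 also lay below both SHAM arrays. The control mr_1 lay above them, at 1558 against 1160 and 1187, and hur_6 lay between them. DOCA-EVs replicate 2 is also called weakly hybridised, but only on the ground of dmr_3, dmr_6 and SCorner3, at 1104, 955 and 1276. Its mr_1, hur_1, hur_2, hur_4 and hur_6 lay above both SHAM arrays before scaling, and its 75th percentile was 451. The median absolute difference between the 2 replicates over the 242 miRNAs of the fit was 0.25 in DOCA and 0.06 in SHAM. The median 95% confidence interval of a difference reached 0.47 to either side. Whether the replicates come from different rats is not stated in the labels, and p-values measure only the spread between these arrays, which may be technical. All arrays lay on 1 slide, with the groups in its columns and the replicate numbers in its rows, so slide column and group cannot be told apart. All 6 kidney epithelium markers were above background on all 4 arrays. The liver marker miR-122-5p, the nerve marker miR-124-3p and the striated muscle markers miR-1-3p and miR-133a-3p did not enter the fit. In bulk cortex, fewer cells of a type and less of a miRNA per cell cannot be told apart.

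Across the 242 miRNAs of the fit the median difference was −0.06, with quartiles at −0.35 and 0.18 and a range of −2.06 to 4.42. limma called 2 miRNAs (0.826% of those tested) at an adjusted p under 0.05, 1 of them higher in DOCA (0.413%) and 1 lower (0.413%). At an unadjusted p under 0.05 there were 39 (16.1%), 26 higher in DOCA (10.7%) and 13 lower (5.37%). That balance depends on the scaling and the arrays fitted: 15 were higher in DOCA and 45 lower with the median of the detected probes, 10 and 14 with no scaling, 22 and 16 with quantile normalization, 21 and 20 with normexp, 25 and 5 with all probes, 19 and 29 with the total signal, and 33 and 45 with only the DOCA and SHAM arrays. The difference was above 1 for 10 miRNAs (4.13%) and below −1 for 3 (1.24%). Both DOCA arrays lay above both SHAM arrays for 71 miRNAs (29.3%) and below both for 97 (40.1%), so the groups did not overlap for 168 (69.4%), of which 166 are members. The difference was above 0 for 109 miRNAs (45.0%) and below 0 for 133 (55.0%). The share above 0 was 21.1% to 62.8% over 6 ways of scaling, so signs are read below beside those of all miRNAs. Of the members, 156 have a measured fold and 50 only a bound, because the lower group was not above background on every array. A bound, written as at least, takes account of the background and not of the spread between arrays. For 30 members no array of DOCA or SHAM was above background, and for 3 others the bound fell under 1, so neither has a fold. The plot of difference against level shows each member.

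**Figure D1:**
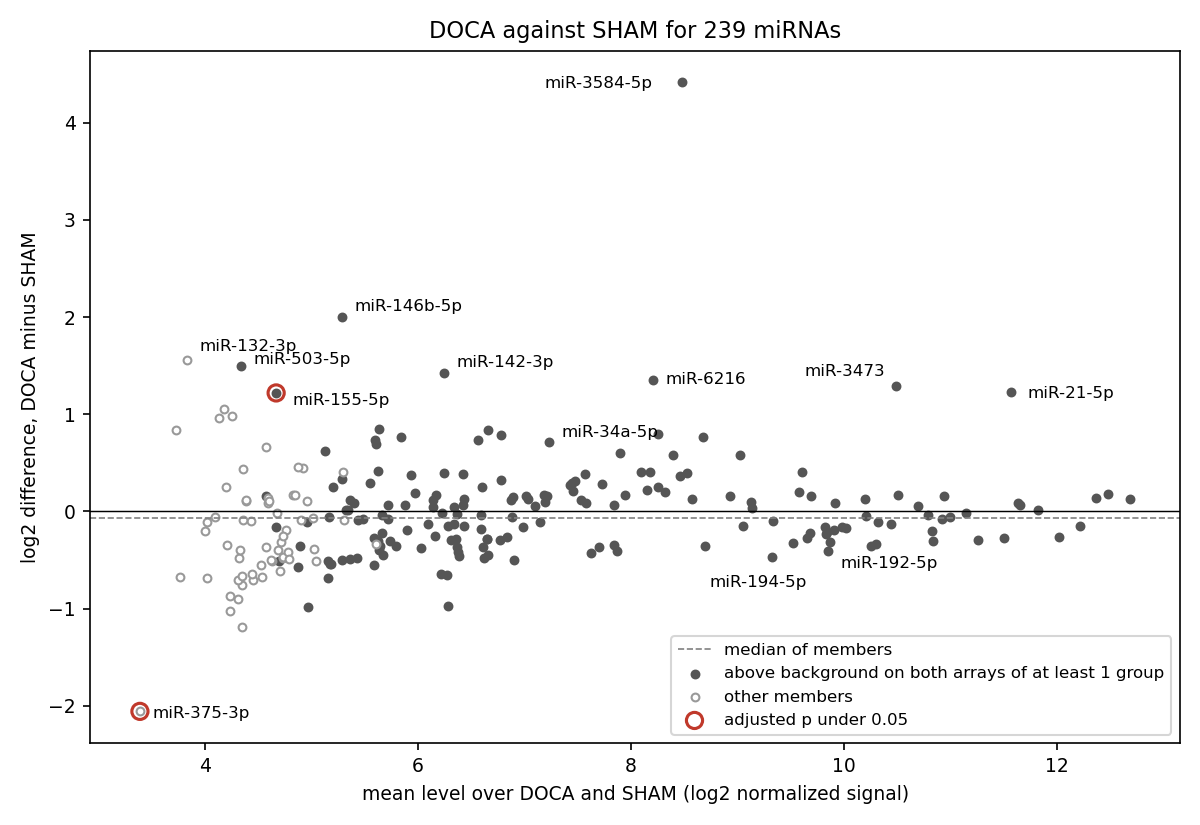
Log2 difference, DOCA minus SHAM, against the mean log2 normalized signal of the 4 arrays, 1 point per member (239), with points above background on both arrays of at least 1 group filled and the 2 miRNAs past the threshold ringed. miR-3584-5p stands alone at 4.42, and miR-375-3p, at −2.06, lies at the dim end of the axis.

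miR-155-5p, a miRNA of activated lymphocytes and macrophages, rose in DOCA. Its level was 5.25 and 5.31 on the DOCA arrays, 3.84 and 3.96 in UNX, and 4.04 and 4.08 in SHAM. The DOCA arrays lay above all UNX and SHAM arrays, and neither SHAM array was above background. The fitted difference was 1.22 ± 0.16 (limma, adjusted p = 0.0312), and against the background of the SHAM arrays the miRNA was at least 1.97-fold higher in DOCA. Its 22 alternatives gave adjusted p-values of 0.00344 to 0.399, under the threshold in 12 of them. Leaving out any single DOCA or SHAM array ended the call, with an adjusted p of 0.0879 and 0.224 without DOCA replicates 1 and 2, and 0.399 and 0.34 without SHAM replicates 1 and 2. Over the 6 scalings, the difference ran from 0.19 with normexp, whose offset compresses dim signals, to 1.42.

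miR-375-3p, known from endocrine cells and from some epithelia, fell in DOCA. It was at the floor on both DOCA arrays, at 2.36 and 2.36, and had 3.64 and 3.60 in UNX and 4.38 and 4.46 in SHAM. Only SHAM replicate 2 was above background, so the signal lay close to background. The fitted difference of −2.06 ± 0.19 (limma, adjusted p = 0.00765) depends on the floor, and as a bound the miRNA was at least 1.01-fold lower in DOCA. With normexp the difference was −0.20, the smallest in size over the 6 scalings. Without 1 of the 4 DOCA and SHAM arrays its adjusted p was 0.0817 to 0.13.

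Among the 16 lists of miRNAs grouped by cell type, process or family, the leukocyte list stood highest. Of its 7 miRNAs, 6 entered the fit, all 6 had a positive difference and no overlap of the groups, and 1, miR-155-5p, passed the threshold. Of all miRNAs, 29.3% lay higher in DOCA without overlap and 0.413% were called higher. All 6 stayed positive in each of the 6 scalings. The list's median difference was 0.98, against −0.06 over all miRNAs. Relative to all miRNAs it lay 1.04 higher in DOCA, and 0.26 to 1.13 higher over the 6 scalings. miR-142-3p, which is specific to blood cells, had levels of 7.20 and 6.71 in DOCA, 6.07 and 5.92 in UNX, and 5.47 and 5.60 in SHAM. All 4 DOCA and SHAM arrays were above background and the groups did not overlap, with UNX between them. The difference was 1.42 ± 0.27, a 2.68-fold higher signal in DOCA, but its adjusted p of 0.0625 missed the threshold. Both slide rows gave a positive value, 1.73 in row 1 and 1.11 in row 2.

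miR-146b-5p, a miRNA induced by inflammatory signalling, had 6.21 and 6.37 in DOCA, 3.55 and 4.04 in UNX, and 4.15 and 4.43 in SHAM. It was above background only in DOCA among these groups and at least 3.96-fold higher there than in SHAM (2.00 ± 0.47, adjusted p = 0.0928). Its seed partner miR-146a-5p, which dampens Toll-like receptor signalling, had 8.65 and 8.63 in DOCA, 8.55 and 8.51 in UNX, and 8.29 and 8.26 in SHAM. Here UNX lay next to DOCA, and the difference was 0.37 ± 0.12 (adjusted p = 0.21). miR-223-3p of granulocytes and monocytes had 6.72 and 7.14 in DOCA, against 6.22 and 6.18 in SHAM (0.73 ± 0.21, adjusted p = 0.162). miR-150-5p of mature lymphocytes had 7.34 and 7.86 in DOCA, against 7.30 and 7.30 in SHAM. Only DOCA replicate 2 stood clear for it: without that array the difference was 0.04, against 0.30 ± 0.18 with it. The other arm, miR-150-3p, was above background on 1 DOCA array and no SHAM array, and at least 1.36-fold higher in DOCA.

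Leukocyte markers and kidney epithelium markers differed in opposite directions between DOCA and SHAM. The summed normalized signal of the 4 leukocyte markers in the fit, of 5 listed, was 452 and 517 in DOCA, 269 and 276 in UNX, and 293 and 295 in SHAM, with miR-142-5p not in the fit. The sum of the 6 kidney epithelium markers was 6322 and 6237 in DOCA, 8146 and 8736 in UNX, and 7534 and 7722 in SHAM. The DOCA arrays were the highest for the first sum and the lowest for the second. Of the 3 erythrocyte markers, 2 were in the fit, miR-486 was above background on no array, and miR-144-3p did not enter it. The sum of these 2 was 407 and 112 in DOCA, against 292 and 280 in SHAM. miR-451-5p, which erythrocytes carry in bulk, made up nearly all of it, with 8.59 and 6.74 in DOCA, against 8.10 and 8.04 in SHAM, so its DOCA arrays lay on either side of SHAM. The endothelial marker miR-126a-3p summed to 1339 and 1127 in DOCA, against 1317 and 1329 in SHAM. The part of these cell types in the other differences was not tested.

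Of the 10 miRNAs of the fibrosis-associated list, miR-382-5p and miR-433-3p did not enter the fit. All 8 measured ones had a positive difference, 7 of them without overlap, and none passed the threshold. Of all miRNAs, 45.0% had a positive difference and 29.3% lay higher in DOCA without overlap, and the 8 stayed positive in each of the 6 scalings. Their median was 0.75, against −0.06 over all miRNAs, which is 0.81 higher and 0.29 to 0.81 higher over the 6 scalings. miR-21-5p, which is among the best known miRNAs of kidney fibrosis, had 12.14 and 12.23 in DOCA, 11.03 and 11.17 in UNX, and 10.91 and 11.00 in SHAM. The DOCA arrays lay above all UNX and SHAM arrays and the slide rows gave the same value, 1.23 and 1.23. The difference was 1.23 ± 0.34, a 2.35-fold higher signal in DOCA, with an adjusted p of 0.149. Its other arm, miR-21-3p, had 5.92 and 6.01 in DOCA, 4.72 and 4.63 in UNX, and 5.37 and 5.10 in SHAM, with 1 SHAM array above background. That arm was at least 1.66-fold higher in DOCA (0.73 ± 0.24, adjusted p = 0.21).

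miR-132-3p and miR-212-3p, whose hairpins lie within 10 kb of each other, are induced by CREB signalling and have been linked to cardiac and renal remodelling. miR-132-3p had 4.67 and 4.55 in DOCA, 2.36 and 2.80 in UNX, and 3.03 and 3.07 in SHAM. Only DOCA replicate 1 was above background, and the miRNA was at least 1.24-fold higher in DOCA (1.56 ± 0.27, adjusted p = 0.0581). miR-212-3p had 6.73 and 5.71 in DOCA, 5.27 and 5.99 in UNX, and 5.49 and 5.43 in SHAM, and the difference was 0.76 ± 0.39 (adjusted p = 0.389). Most of that difference came from DOCA replicate 1, since without replicate 2 it was 1.28. miR-214-3p and miR-199a, from fibroblasts and other mesenchymal cells, showed the reverse. miR-214-3p had 8.04 and 9.26 in DOCA, against 7.85 and 7.87 in SHAM, and its difference was 0.79 with both DOCA arrays and 0.19 without replicate 2. miR-199a-3p had 0.58 with both arrays and 0.24 without that replicate. miR-199a-5p, the 1 member of the list whose groups overlap, had 0.38 with both arrays and −0.07 without it.

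miR-34a-5p, a direct target of p53 that slows the cell cycle, had 7.53 and 7.65 in DOCA, 6.91 and 6.98 in UNX, and 6.85 and 6.89 in SHAM. All arrays were above background, the replicates lay close together and DOCA stood apart from both other groups. The difference was 0.72 ± 0.12, a 1.65-fold higher signal, with an adjusted p of 0.0581. miR-34b-5p, with the same seed, had 4.05 and 5.18 in DOCA, against 3.61 and 3.70 in SHAM, with only DOCA replicate 2 above background, and was at least 1.24-fold higher in DOCA. The opposite arm, miR-34b-3p, had 5.23 and 4.86 in DOCA, against 5.53 and 5.54 in SHAM, a difference of −0.50 ± 0.34, so the 2 arms of this hairpin differ in sign. Among the hypoxia and p53 list as a whole, 5 of 6 miRNAs were in the fit, 2 had a positive difference, and the median was −0.23. miR-210, the miRNA induced by HIF, had negative values, −0.42 for the 5p arm and −0.23 for the 3p arm.

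miR-221-3p and miR-222-3p, which lie together on chromosome X and target the cell cycle inhibitor p27, both had positive differences without overlap. Of all miRNAs, 29.3% lay higher in DOCA without overlap. miR-221-3p had 7.10 and 7.05 in DOCA, 6.51 and 6.24 in UNX, and 6.25 and 6.23 in SHAM (0.84 ± 0.16, a 1.79-fold higher signal in DOCA, adjusted p = 0.0625). miR-222-3p had 4.81 and 4.60 in DOCA, against 3.4 and 3.9 in SHAM, but was above background on no array of DOCA or SHAM and has no fold. It was detected on both arrays in DOCA only, and all 11 such miRNAs had a positive difference, so the detection rule favours its sign. The other arms of the pair did not enter the fit.

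miR-3584-5p had the largest difference of the 242 miRNAs. Its level was 10.67 and 10.71 in DOCA, 5.96 and 8.11 in UNX, and 6.35 and 6.19 in SHAM, with all of these arrays above background. Both DOCA arrays lay far above SHAM, while the 2 UNX arrays differed widely from each other, as did those of DOCA-EVs at 10.003 and 7.876. The difference was 4.42 ± 0.87 with a 95% confidence interval of 2.31 to 6.53, a 21.4-fold higher signal in DOCA. Its adjusted p of 0.0625 missed the threshold, and over the 6 scalings the difference was 3.07 to 4.62. miR-6216, likewise little described, had 8.66 and 9.11 in DOCA, 7.23 and 7.73 in UNX, and 7.56 and 7.51 in SHAM (1.35 ± 0.27, 2.55-fold higher in DOCA, adjusted p = 0.0625). miR-3473 had 10.62 and 11.64 in DOCA, against 9.84 and 9.85 in SHAM. Its difference was 1.29 ± 0.41 with both DOCA arrays (adjusted p = 0.207) and 0.78 without replicate 2. Of the members above background on both arrays of DOCA or SHAM, the 12 with the smallest p and a positive difference were picked. They also include miR-15b-5p, miR-188-5p, at least 1.54-fold higher in DOCA, and miR-290, at least 1.8-fold higher. The plot of these 12 by array shows the UNX mean nearer to that of SHAM than to that of DOCA in every panel.

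**Figure D2:**
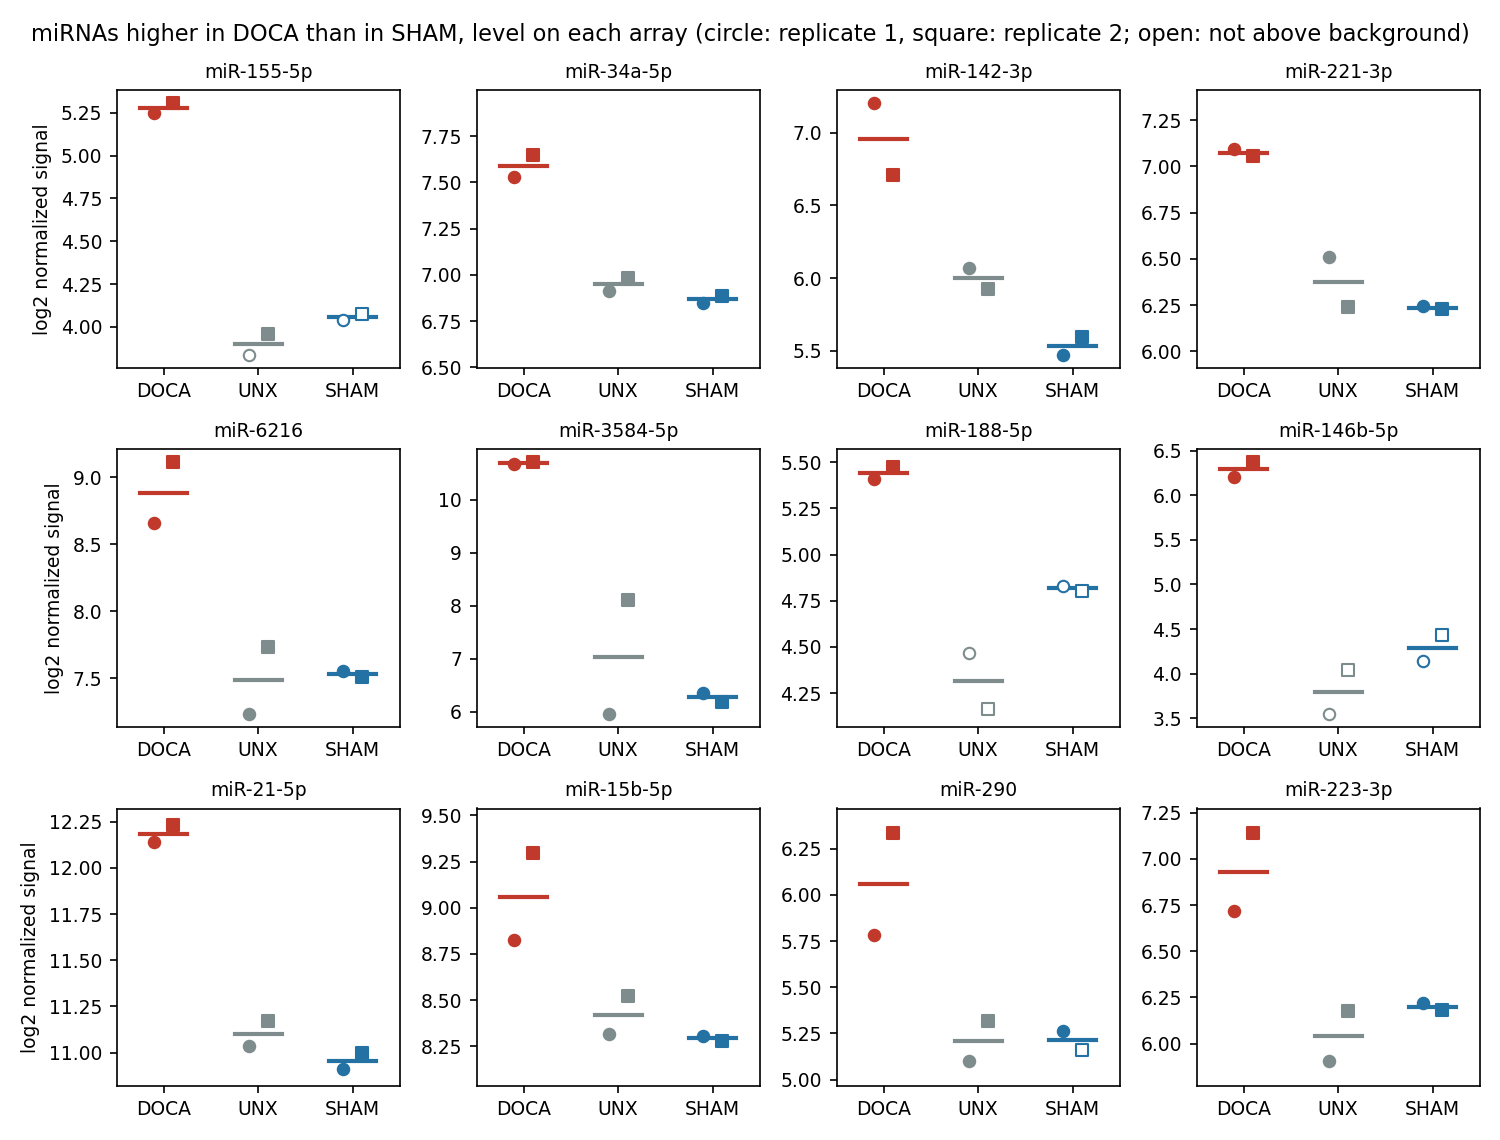
Log2 normalized signal of 12 miRNAs with a positive difference, on each array of DOCA, UNX and SHAM. They have the smallest p among members above background on both arrays of DOCA or SHAM. A bar marks each group's mean, and symbols are open where the array was not above background. Both DOCA arrays lie above both SHAM arrays in every panel; miR-146b-5p, miR-155-5p and miR-188-5p are above background on both DOCA arrays and on neither SHAM array.

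The 5 miRNAs with the seed AGCAGCA, which target cyclins and Bcl2, had positive differences, and their groups did not overlap, against 29.3% of all miRNAs higher in DOCA without overlap. With no scaling, with the median of the detected probes and with the total signal, miR-16-5p was negative. This set was singled out after its values were seen and belongs to none of the lists. miR-15b-5p had 8.82 and 9.29 in DOCA, against 8.31 and 8.28 in SHAM (0.76 ± 0.22, a 1.7-fold higher signal, adjusted p = 0.155). miR-497-5p had 8.48 and 8.89 in DOCA, against 8.11 and 8.09 in SHAM (0.58 ± 0.24, and 0.37 without DOCA replicate 2). For both, the higher of the DOCA arrays was replicate 2. miR-195-5p had a difference of 0.40, miR-322-5p of 0.39 and miR-16-5p of 0.16. The median of the 5 lay 0.46 above that of all miRNAs, and 0.14 to 0.47 above it over the 6 scalings. miR-503-5p, in 1 cluster with miR-322-5p on chromosome X, had 5.21 and 4.97 in DOCA, 3.24 and 3.39 in UNX, and 3.71 and 3.47 in SHAM. It was above background on both DOCA arrays and on neither SHAM array, and at least 1.73-fold higher in DOCA (1.50 ± 0.56, adjusted p = 0.245).

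The list of the miR-17 cluster and its paralogues, which promote proliferation, had a positive difference for all 9 measured of its 11 miRNAs, 7 without overlap. Its median lay 0.29 above that of all miRNAs (0.05 to 0.29 over the 6 scalings). Of all miRNAs 29.3% lay higher in DOCA without overlap, and with no scaling 3 of these 9 were positive. miR-19a-3p, which is not a member, had the largest difference, 0.87 ± 0.57. It was above background on DOCA replicate 1 but on no other DOCA or SHAM array. miR-93-5p had 0.31 ± 0.15. miR-18a-3p, from the hairpin cluster of Mir17 but not on the list, had −0.67, lower in DOCA without overlap. That miRNA was above background on no array of DOCA or SHAM. The let-7 family, linked to differentiation, had 8 positive values of 9 and a median of 0.14, but only 1 of the 9 was positive with no scaling or with the median of the detected probes. Its median lay 0.04 to 0.21 above that of all miRNAs over the 6 scalings. let-7i-5p had the largest of the 9, at 0.40 ± 0.17 (0.23 without DOCA replicate 2), with 9.64 and 9.98 in DOCA, against 9.42 and 9.39 in SHAM. The let-7 list holds 5p arms only. The 3p arms let-7b-3p, at −0.38, and let-7d-3p, at −0.46, both lay lower in DOCA without overlap, as did 40.1% of all miRNAs. No miRNA of either group passed the threshold.

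The kidney tubule-enriched list had a negative difference for all 8 measured of 9 miRNAs, 7 without overlap, and none passed the threshold. The median was −0.31, which is 0.24 below that of all miRNAs and 0.10 to 0.26 below it over the 6 scalings. Of all miRNAs, 55.0% had a negative difference and 40.1% lay lower in DOCA without overlap, and 5 to 8 of these 8 were negative over the 6 scalings. miR-192-5p, a miRNA of proximal tubule cells, had 9.52 and 9.77 in DOCA, 10.27 and 10.31 in UNX, and 10.03 and 10.08 in SHAM. DOCA was the lowest group and UNX the highest, and the difference was −0.41 ± 0.14 (1.33-fold lower in DOCA, adjusted p = 0.211). miR-194-5p, whose hairpin Mir194-2 lies beside Mir192 on chromosome 1, with another copy on chromosome 13, had 9.13 and 9.05 in DOCA, 9.54 and 9.72 in UNX, and 9.57 and 9.56 in SHAM (−0.47 ± 0.17, adjusted p = 0.239). miR-192-3p was above background on 1 SHAM array and no DOCA array and was at least 1.2-fold lower in DOCA (−0.87 ± 0.18, adjusted p = 0.0648). miR-203a-3p had 5.56 and 5.07 in DOCA, against 5.90 and 5.83 in SHAM (−0.55 ± 0.20, and −0.31 without DOCA replicate 2), miR-10a-5p had −0.20 ± 0.12 and miR-204-5p −0.19 ± 0.17.

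The miR-30 family, known from podocytes and tubule cells, had a negative difference for 9 of its 10 measured miRNAs, 8 without overlap, and a median of −0.30, which lay 0.23 below that of all miRNAs. Over all miRNAs 55.0% were negative and 40.1% lay lower in DOCA without overlap, and 7 to 10 of the 10 were negative over the 6 scalings. miR-30e-3p had 6.44 and 6.33 in DOCA, 6.92 and 6.93 in UNX, and 6.88 and 6.84 in SHAM (−0.48 ± 0.12, 1.39-fold lower in DOCA, adjusted p = 0.126). miR-30a-3p had −0.43 ± 0.16, miR-30c-5p −0.33 ± 0.14, miR-30c-2-3p −0.30 ± 0.11 and miR-30a-5p −0.29 ± 0.17. For the last of these the levels were 11.14 and 11.08 in DOCA, against 11.38 and 11.41 in SHAM. miR-30e-5p depended on 1 array, with 9.87 and 9.27 in DOCA, against 9.77 and 9.82 in SHAM, and its difference was −0.22 with both DOCA arrays and 0.08 without replicate 2.

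The miR-29 family, which restrains collagen and other matrix genes, had 3 negative differences among 4 measured miRNAs, 2 without overlap, and a median of −0.22. That count is near the 40.1% of all miRNAs that lay lower in DOCA without overlap. miR-29c-3p had 10.64 and 10.73 in DOCA, 11.16 and 11.12 in UNX, and 11.06 and 10.92 in SHAM (−0.31 ± 0.13, adjusted p = 0.299). miR-29a-3p had 12.05 and 12.23 in DOCA, against 12.36 and 12.22 in SHAM, and the groups overlapped. miR-29b-3p had a positive difference of 0.07 ± 0.17. The miR-200 family, which keeps ZEB factors low in epithelium, had 5 negative differences among 6 measured miRNAs, 3 without overlap, which is likewise near the 40.1% of all miRNAs. Its median lay 0.07 below that of all miRNAs with all arrays and 0.02 above it without DOCA replicate 2. miR-200b-3p had 10.01 and 9.86 in DOCA, 10.34 and 10.33 in UNX, and 10.10 and 10.11 in SHAM (−0.17 ± 0.12, adjusted p = 0.526). Neither family had a miRNA past the threshold.

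Among the other miRNAs with a negative difference and a small p was miR-145-5p of smooth muscle, with 6.32 and 6.54 in DOCA, 6.41 and 6.41 in UNX, and 6.89 and 6.86 in SHAM (−0.45 ± 0.14, adjusted p = 0.19). Here the UNX arrays lay with DOCA and not with SHAM. miR-143-3p, which is made from the same primary transcript in mammals, had −0.23 ± 0.15. Of the endothelium and smooth muscle list, 3 of 6 miRNAs were in the fit, all 3 with a negative difference and a median of −0.23. miR-326-3p had 4.44 and 4.44 in DOCA, where neither array was above background, against 4.95 and 4.95 in SHAM, and was at least 1.29-fold lower in DOCA (adjusted p = 0.0846). miR-196c-3p was at least 1.46-fold lower in DOCA, with 4.96 and 4.86 there, 5.17 and 4.75 in UNX, and 5.43 and 5.47 in SHAM. miR-26b-5p had 10.28 and 9.88 in DOCA, against 10.47 and 10.39 in SHAM (−0.35 ± 0.16, and −0.15 without DOCA replicate 2).

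**Figure D3:**
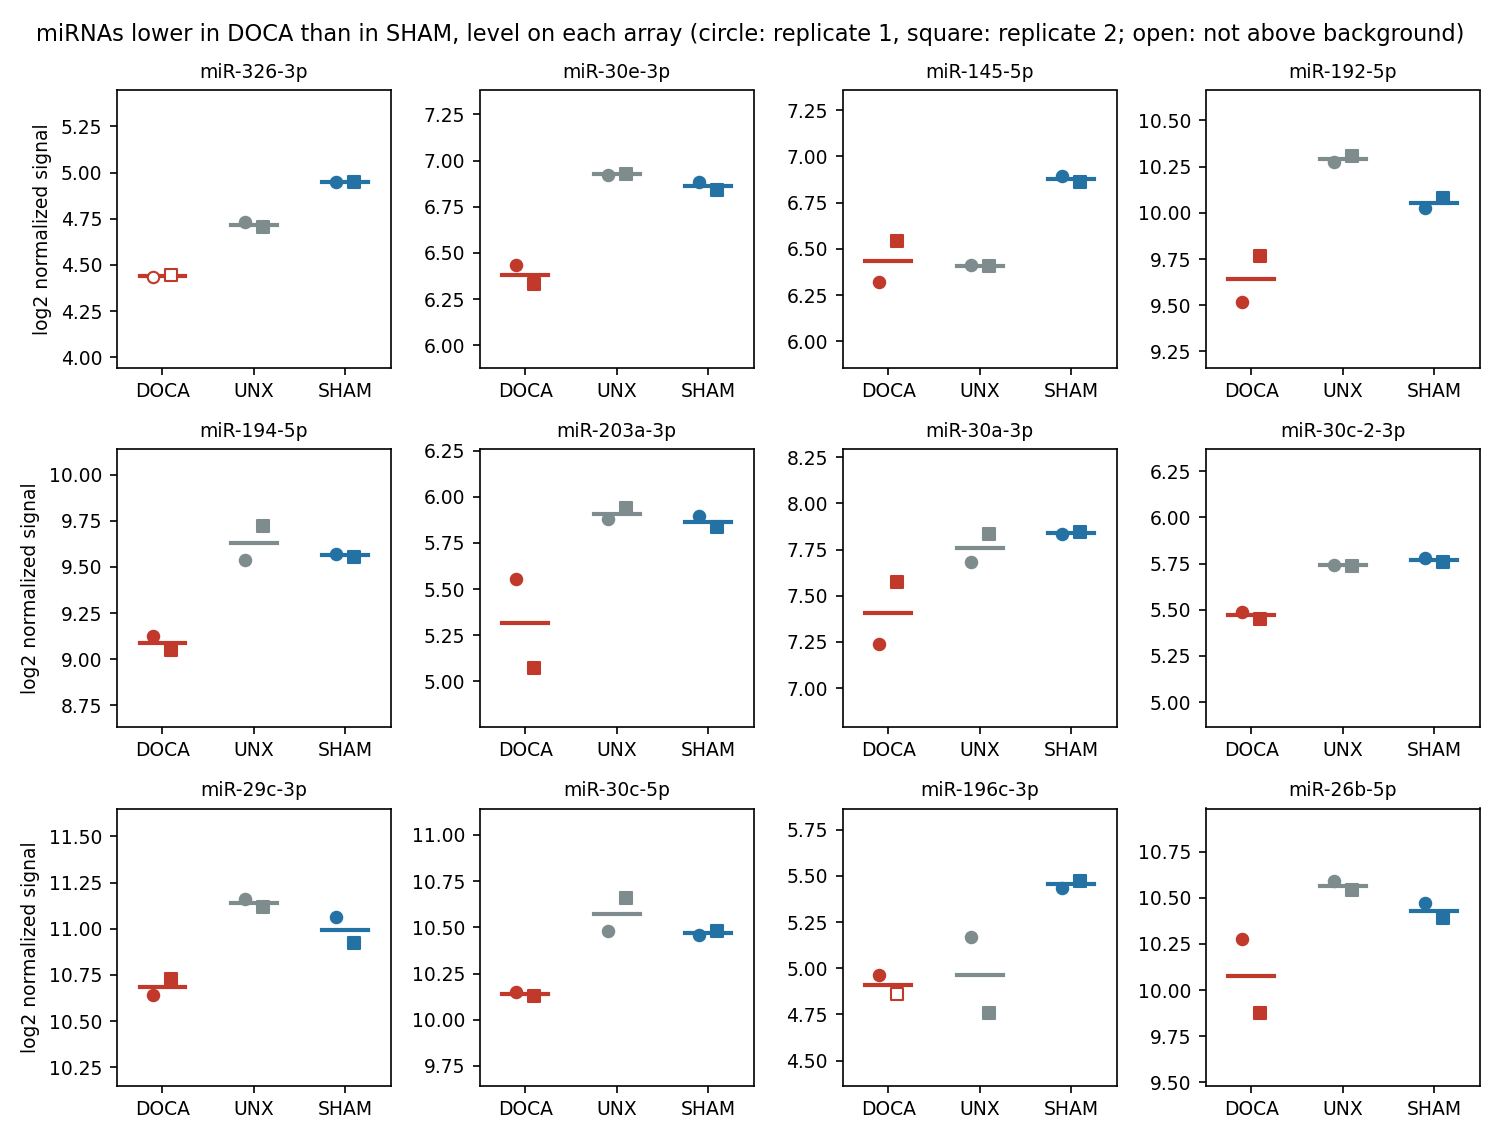
Log2 normalized signal of the 12 miRNAs with a negative difference and the smallest p, on each array of DOCA, UNX and SHAM, with a bar at each group's mean and open symbols where the array was not above background. Both DOCA arrays lie below both SHAM arrays in every panel, and for miR-145-5p and miR-196c-3p the UNX arrays lie near DOCA.

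The list of miRNAs linked to the mineralocorticoid receptor, renin and sodium transport had 4 of its 8 miRNAs in the fit, 2 with a positive and 2 with a negative difference. These were miR-155-5p, which passed, miR-181a-5p, and the pair miR-192-5p and miR-194-5p, so its larger values are those already given. The median was −0.01. The group of miR-23, miR-24 and miR-27, with 5 of 5 measured, had a median of −0.01 too, and miR-23a-3p had 10.82 and 10.94 in DOCA, against 10.95 and 10.97 in SHAM. The striated muscle list had 2 of 5 miRNAs in the fit, with miR-206-3p at 5.80 and 5.10 in DOCA, against 6.02 and 5.78 in SHAM. The list of liver, nerve and endocrine miRNAs had 2 of 6, miR-375-3p and miR-9a-5p, the second above background on no array. The plot of the lists shows their medians in order.

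**Figure D4:**
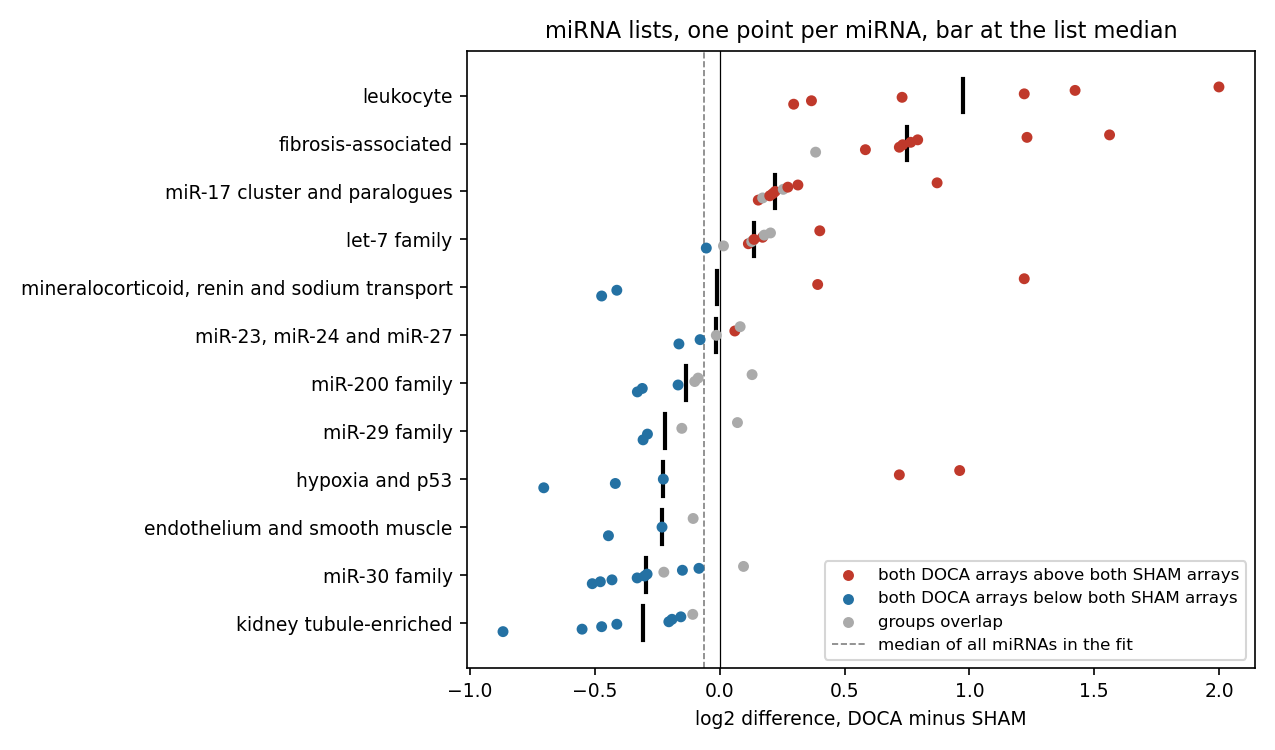
Log2 difference, DOCA minus SHAM, of each measured miRNA in the 12 lists with at least 3 miRNAs in the fit, coloured by whether the 2 groups' arrays overlap; the bar is the list's median and the dashed line the median of all 242 miRNAs. The leukocyte median is at 0.98 and the kidney tubule-enriched median at −0.31.

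The 10 members with the highest level, a criterion that does not use the difference, were mostly let-7, miR-29 and miR-26 family miRNAs. Apart from miR-21-5p, their differences lay between −0.27 and 0.18, and their 95% confidence intervals bound what could have been missed. let-7c-5p, with 12.63 and 12.87 in DOCA, against 12.61 and 12.64 in SHAM, had 0.13 with an interval of −0.20 to 0.46. let-7a-5p had an interval of −0.18 to 0.45, let-7f-5p of −0.27 to 0.30 and let-7b-5p of −0.24 to 0.59. For miR-26a-5p, with 11.91 and 11.88 in DOCA, against 12.16 and 12.15 in SHAM, the interval was −0.66 to 0.14. miR-22-3p had −0.31 to 0.47 and miR-466b-3p −0.87 to 0.32. All of these intervals hold 0.

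Of the 35 miRNAs detected on both arrays in SHAM only, 28 were also detected on DOCA replicate 1 and 0 on DOCA replicate 2, the weakly hybridised array. Only 7 were detected on neither DOCA array. miR-375-3p, miR-3558-5p, miR-758-5p, miR-138-1-3p and miR-339-5p had the largest differences of the 35. miR-3558-5p had 4.48 and 3.03 in DOCA, against 5.04 and 4.84 in SHAM, and its difference was −1.19 with both DOCA arrays and −0.47 without replicate 2. Of the 11 detected on both arrays in DOCA only, 7 were detected on neither SHAM array, and 2 were above background on both DOCA arrays, miR-146b-5p and miR-503-5p. All 11 had a positive difference, and of the 35 only 2 did, so the detection rule favours these signs. Such miRNAs sit in the lists too, among them miR-146b-5p and miR-132-3p (DOCA only) and miR-192-3p and miR-30c-1-3p (SHAM only).

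Several hairpins gave a measurement of both arms. Of 29 such pairs, 21 had the same sign in both arms, 8 positive and 13 negative, and the differences of the arms correlated across pairs (r = 0.54, n = 29, with both arms read on the same arrays). In the large imprinted miRNA cluster that contains Mir379, all 8 measured miRNAs had a negative difference without overlap, with a median of −0.38, against 55.0% negative and 40.1% lower without overlap among all miRNAs. This cluster was singled out after its values were seen, and its median lay 0.32 below that of all miRNAs and 0.025 to 0.33 below it over the 6 scalings, the least with normexp. One of them, miR-494-3p, had 9.62 and 9.81 in DOCA, 9.08 and 9.31 in UNX, and 9.95 and 10.11 in SHAM, so UNX lay lower than DOCA. Of these 8, 4 were above background on no array of DOCA or SHAM. miR-299a-5p, miR-758-5p, miR-539-5p, miR-134-3p and miR-485-3p were detected on both arrays in SHAM only. Of the 35 such miRNAs 2 had a positive difference, so the detection rule favours their negative sign. The shares of all miRNAs are therefore no fair measure for them. In the cluster of Mir322 and Mir503 on chromosome X all 5 measured miRNAs had a positive difference, against 45.0% of all miRNAs. With no scaling or with the median of the detected probes, 3 of the 5 were positive. Its miR-503-5p and miR-542-5p were detected on both arrays in DOCA only, and all 11 such miRNAs were positive, so the rule favours that sign. miR-542-5p was above background on no array of DOCA or SHAM. The share of guanine and cytosine had little relation to the difference (Spearman's rho = −0.06 across 218 miRNAs with a sequence, which share the same 4 arrays).

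The 2 rows of the slide give 2 separate differences, each from 1 array per group and without a test. Across the 242 miRNAs they correlated with r = 0.76, and 0.69 over the 241 other than miR-3584-5p, and 192 miRNAs (79.3%) had the same sign in both rows. The leukocyte list lay 0.92 above all miRNAs in row 1 and 1.09 in row 2, and the fibrosis-associated list 0.68 and 0.98. The kidney tubule-enriched list lay 0.28 below all miRNAs in row 1 and 0.22 in row 2. The erythrocyte miRNAs differed between the rows: miR-451-5p had 0.48 in row 1 and −1.30 in row 2.

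**Figure D5:**
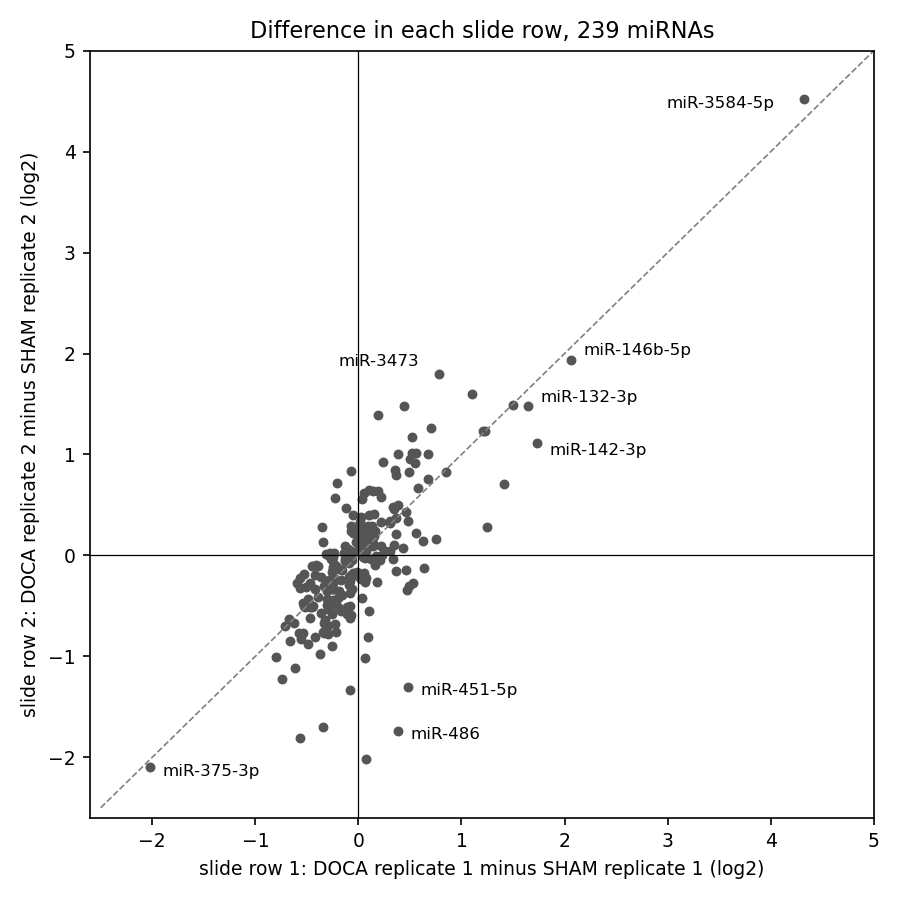
Log2 difference in slide row 2 against that in slide row 1 for the 239 members, 1 DOCA and 1 SHAM array per row, with the line of equal values dashed. miR-3584-5p (4.32 and 4.52) and miR-146b-5p (2.06 and 1.94) lie near the line, and miR-451-5p and miR-486 are positive in row 1 and negative in row 2.

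UNX allows the joint contrast to be set beside its parts, although the comparisons share arrays and are not independent. For miR-155-5p the difference was 1.22 for DOCA minus SHAM, 1.38 for DOCA minus UNX and −0.16 for UNX minus SHAM. For miR-21-5p these were 1.23, 1.08 and 0.15, and for miR-146b-5p 2.0, 2.5 and −0.5. For these 3 miRNAs the value of UNX minus SHAM was the smallest in size. miR-142-3p had 1.42, 0.96 and 0.46, miR-192-5p −0.41, −0.65 and 0.24, and miR-145-5p −0.45, 0.02 and −0.47. The value of UNX minus SHAM was opposite in sign to DOCA minus SHAM for miR-192-5p and close to it for miR-145-5p. By list, the leukocyte medians were 0.98 for DOCA minus SHAM, 0.92 for DOCA minus UNX and −0.16 for UNX minus SHAM. The kidney tubule-enriched medians were −0.31, −0.50 and 0.05 in the same order.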

How the data were processed

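MiRNAs of rat renal cortex were measured on 8 one-colour Agilent arrays, 2 in each of 4 groups taken from the sample titles. Per the file headers, the authors' scanner files were made with Feature Extraction 11.5.1.1, and the deposited intensity is a processed signal per spot, background-subtracted and not normalized between arrays. The other columns used are the software's flags for detection, background and outlying spots. Spots flagged as outliers were left out and the rest averaged per probe (1806 probes, 758 miRNAs). Each array was divided by its 75th percentile over the 271 probes detected on all arrays. Probe values were raised to a floor of 2.57, the mean SD of the negative controls, and summed per miRNA before log2.

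A miRNA entered the fit when detected on both arrays of at least 1 of the 4 groups (242 miRNAs, 31.9%), and the 516 others were left out. DOCA was compared with SHAM in limma 3.58.1 (R 4.3.3) with 1 mean per group, 4 residual and 2.18 prior degrees of freedom, as a two-sided test, adjusted over the 242 by Benjamini-Hochberg, with a threshold of 0.05. With 2 arrays per group the smallest p of an exact permutation test is 0.333, and no such test was run. Array number limits the precision, since arrays give no counts. A miRNA was above background where 0.5 or more of the spots of a probe were flagged well above it. A fold is given as a bound where the lower group was not above background on every array, its level then being the higher of its own and the dimmest miRNA above background.

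The rule for naming took each miRNA past the threshold, the 12 with the smallest p in each direction that were above background in a group, the 10 with the highest level, 5 per detection class, 2 or more of each list, seed partners and other arms, and 7 miRNAs whatever their p. The rule took miR-9a-5p, a non-member in the fit, through its list. Others came outside the rule, after values were seen. These were miR-3473, let-7b-3p, let-7d-3p, the non-member miR-19a-3p, the other named members of lists, seeds and clusters, and the seed and cluster sets. The members and the 16 lists were chosen with earlier results of these data known. Alternatives changed the scaling, background correction, summary, filter, floor, variance model, arrays in the fit and replicate block. The replicate numbers equal the slide rows. Deviations of same-numbered DOCA and SHAM arrays from their group means correlated across the 242 miRNAs (r = 0.24). All 6 pairs of groups did so (r = 0.24 to 0.56). The replicate block was therefore fitted as pairing in an alternative. The main fit holds no block, so its standard errors and p-values do not take this correlation into account. Normexp used the median spot signal, since the files analysed here give no mean signal; that setting and the fit without both weakly hybridised arrays were chosen after seeing the data.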

Additional observations from a re-analysis of the deposited data

Results flagged for a closer look

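The positive control mr_1 is not among the miRNAs compared, and its scaled signal differed between the groups. It was 1818 and 2356 on the DOCA arrays, 988 and 1021 in UNX, and 1176 and 1281 in SHAM. The lowest DOCA array lay 1.42-fold above the highest SHAM array. On the DOCA-EVs arrays it was 1453 and 1662. The scaled hur_1, hur_2 and hur_6 also lay higher on both DOCA arrays than on both SHAM arrays, while dmr_3, dmr_6, SCorner3 and hur_4 overlapped. For hur_1 the scaled signal was 46945 and 50277 in DOCA, against 39997 and 41667 in SHAM.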

How the results depend on the processing

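Of 242 miRNAs 2 passed the threshold, 1 higher in DOCA and 1 lower. Other settings gave, in this order, all calls, those higher in DOCA and those lower: 8, 7 and 1 with the 75th percentile of all probes, 4, 1 and 3 with the median of the detected ones, 1, 0 and 1 with no scaling or with quantile normalization, and 0, 0 and 0 with normexp and quantile normalization, where limma left 41 at an unadjusted p under 0.05. The software's total signal gave 2, 2 and 0. The filter to miRNAs detected on all 8 arrays gave 6, 6 and 0, and no filter on dim miRNAs 5, 2 and 3. Using only the DOCA and SHAM arrays gave 12, 9 and 3, array weights 18, 14 and 4, a floor raised 2 times 4, 3 and 1, and leaving out both weakly hybridised arrays 6, 5 and 1. The array weights were equal within each group, at 0.63 for both DOCA arrays and 4.75 for both SHAM arrays. They therefore did not set DOCA replicate 2 apart. With the replicate block the counts were 2, 1 and 1, and the pairing changed no call. In limma the adjusted p with the block was 0.0265 for miR-155-5p and 0.0139 for miR-375-3p. Leaving out 1 array at a time gave 0 to 13 calls, 0 to 11 higher in DOCA and 0 to 2 lower: 0 without any 1 DOCA or SHAM array, where the lone array is assumed to vary like the other groups (16 to 53 at an unadjusted p under 0.05), 1 without either UNX array, and 13 without either DOCA-EVs array.

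The 25 miRNAs with the smallest p or past the threshold kept their direction in all 548 alternative values. They were picked by p on arrays that the alternatives reuse, so the kept direction is no separate support. Reversed values, of differences whose intervals held 0, numbered 53 among the other named miRNAs. With no scaling, let-7c-5p had −0.13, let-7b-5p −0.077, let-7a-5p −0.12, let-7f-5p −0.24, miR-29b-3p −0.18, miR-22-3p −0.17, let-7e-5p −0.052, miR-92a-3p −0.055 and miR-16-5p −0.096. Scaling to the median of detected probes gave the following: let-7c-5p had −0.094, let-7b-5p −0.044, let-7a-5p −0.085, let-7f-5p −0.21, miR-29b-3p −0.15, miR-22-3p −0.14, let-7e-5p −0.019, miR-92a-3p −0.022 and miR-16-5p −0.063. With the total signal, let-7c-5p had −0.057, let-7b-5p −0.0073, let-7a-5p −0.048, let-7f-5p −0.17, miR-29b-3p −0.11, miR-22-3p −0.10 and miR-16-5p −0.026. Under quantile normalization let-7c-5p had −0.030, let-7f-5p −0.087, miR-29b-3p −0.093, miR-22-3p −0.11 and miR-92a-3p −0.069. Under normexp let-7c-5p had −0.0096, let-7f-5p −0.13, miR-29b-3p −0.063, miR-22-3p −0.088 and miR-92a-3p −0.030. With all probes, miR-29a-3p had 0.050, miR-27b-3p 0.038, miR-23a-3p 0.12, miR-200b-3p 0.035 and miR-204-5p 0.010. Without both weak arrays, let-7b-5p had −0.046, miR-486 0.39, miR-451-5p 0.52, miR-30e-5p 0.076 and miR-199a-5p −0.072. Leaving out 1 array at a time reversed the sign in part of these ranges: let-7b-5p −0.046 to 0.40, let-7f-5p −0.034 to 0.064, miR-22-3p −0.11 to 0.27, miR-486 −1.74 to 0.39, miR-451-5p −1.33 to 0.52, miR-30e-5p −0.52 to 0.076 and miR-199a-5p −0.072 to 0.84. Those of miR-451-5p, miR-486, miR-30e-5p and miR-199a-5p turned without DOCA replicate 2. The cause was not tested. The scalings moved the median of all miRNAs, which was −0.06 in the main setting, 0.13 with all probes, −0.31 with none, −0.28 with the median of the detected ones, −0.08 with quantile normalization, −0.02 with normexp and −0.24 with the total signal. Differences of dim miRNAs are limited by the background.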
